A study of Mus musculus with 14 samples.

Results

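The SR genes encode splicing factors that bind exons and help the spliceosome to choose splice sites. The 10 SR genes described here are Srsf1, Srsf2, Srsf3, Srsf4, Srsf5, Srsf6, Srsf7, Srsf9, Srsf10 and Srsf11, taken by name from 17450 gene symbols matched to the 59796 assembled loci of the deposited gene table. Where several loci carried a symbol, the locus with the highest mean was kept, and the 43 rows of the isoform table that belong to the 10 loci were described with them. RNA was sequenced from the hippocampus of mouse embryos between embryonic days 16 and 18, in 14 libraries. 189N3 mice (3 libraries) carry a BAC transgene with the whole mouse Dyrk1a gene, and Dp(16)1Yey/+ mice (4 libraries) carry a duplication of the segment of chromosome 16 from Lipi to Zbtb21, which holds Dyrk1a and the other genes orthologous to that part of human chromosome 21. Each model was compared with the wild types of its own line (3 and 4 libraries), and the number of genotyped embryos stated for a genotype, 3 or 4, equals its number of libraries. The labels do not name the embryo behind each library, and p-values measure the spread between these libraries.

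An SR protein has an RNA recognition motif at its amino-terminal side, in some members a pair of them, and a tail of alternating arginine and serine residues. Kinases of the CLK, SRPK and DYRK families phosphorylate the serines of this tail, which sets where the protein sits in the nucleus and which partners it binds. DYRK1A is a nuclear kinase known to phosphorylate several SR proteins, which is why their RNA in these models of Down syndrome is of interest. RNA sequencing gives the amount of each transcript and says nothing of phosphorylation. SR genes are also known to control their own messengers: an extra exon with an early stop codon, called a poison exon, is spliced in when the protein is plentiful, and the RNA is then removed by nonsense-mediated decay.

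The stretches of coding sequence below show where arginine-serine pairs are densest, for 4 members that differ in how many pairs they have. Pairs were sought over the whole coding sequence, so a run can reach beyond the tail that the kinases act on. Sequences and positions were read from GENCODE M21 (mouse build GRCm38, the same assembly as mm10), on the strand of each gene, and capitals mark codons of an arginine next to a serine. Each line is the run of 40 codons with the most such pairs.
Srsf1: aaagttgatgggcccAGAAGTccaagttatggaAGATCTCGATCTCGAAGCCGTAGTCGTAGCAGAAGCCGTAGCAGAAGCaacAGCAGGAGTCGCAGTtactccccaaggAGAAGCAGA
Srsf4: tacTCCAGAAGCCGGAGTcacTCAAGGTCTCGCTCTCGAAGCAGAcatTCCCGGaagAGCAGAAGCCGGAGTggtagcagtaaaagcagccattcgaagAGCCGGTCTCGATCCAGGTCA
Srsf7: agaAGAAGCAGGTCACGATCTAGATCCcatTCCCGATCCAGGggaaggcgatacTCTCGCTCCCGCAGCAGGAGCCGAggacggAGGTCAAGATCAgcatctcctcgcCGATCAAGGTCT
Srsf9: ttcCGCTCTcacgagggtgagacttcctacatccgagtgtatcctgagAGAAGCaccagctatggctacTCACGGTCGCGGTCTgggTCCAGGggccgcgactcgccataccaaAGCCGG
The Srsf1 run spans codons 193 to 232 of 253 and holds 22 arginine-serine pairs. The Srsf4 run spans codons 185 to 224 and holds 22 of the 106 pairs of this coding sequence, which has the most pairs of the 10 genes. The Srsf7 run (codons 126 to 165) holds 23 of 55 pairs. In Srsf9 the densest run (codons 171 to 210) holds 8 of 9 pairs, the fewest of the 10 genes. Arginine and serine together made up 22.1% of the Srsf9 protein, against 45.7% in Srsf2 and 43.0% in Srsf4.

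The other sequence feature that the genes share is the decay transcript. The annotation gives the 10 genes 29 protein-coding transcripts, 15 transcripts classed as nonsense-mediated decay and 26 with a retained intron, and 9 of the 10 genes have at least 1 decay transcript (Srsf10 has 0). A poison exon of Srsf3 lies at chr17:29039454-29039909 (456 bases, plus strand), and that of Srsf7 at chr17:80204622-80205081 (460 bases, minus strand). Each overlaps no exon of an annotated protein-coding transcript of its gene. Both are shown from the first base of the exon to the early stop codon, which is in capitals.
Srsf3: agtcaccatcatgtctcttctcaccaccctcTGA
Srsf7: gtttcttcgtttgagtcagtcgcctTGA
In Srsf3 the stop codon ends at base 34 of the exon, and in Srsf7 at base 28. The isoform rows carry UCSC transcript names without exon structures, so none of them could be tied to these exons.

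All 10 genes were measured well above the counting limit in every library. The deposited values are fragments per locus divided by 1 size factor per library (scaled fragments), with 20809135 to 29098454 fragments per library, and every library had at least 173 scaled fragments for every SR gene. Divided by the length of the longest coding transcript in kilobases, the levels over the 14 libraries ran from 4120 ± 956 per kb for Srsf3 (mean ± SD, n = 14) to 97.9 ± 16.7 per kb for Srsf4. Srsf7 (1960 ± 343 per kb), Srsf1 (1709 ± 215), Srsf5 (1671 ± 232), Srsf2 (1404 ± 220), Srsf10 (1153 ± 138), Srsf11 (993 ± 78.8), Srsf6 (936 ± 147) and Srsf9 (300.2 ± 69.8) stood between them. Srsf3 was 2.10 times as high as Srsf7, the next in order, and the ranges of these 2 genes did not overlap. The ranges of Srsf6 and Srsf9, and of Srsf9 and Srsf4, were also apart. Each other pair of neighbours in the order overlapped, and Srsf1 lay above Srsf5 in 7 of 14 libraries. Transcript length was taken from the annotation and not from the assembled transcripts, so the order is approximate. Loci antisense to 7 of the 10 genes were also counted, at 10.7% to 41% of the sense level. The libraries were stranded, and the sources used here do not state whether counting used the strand.

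Some facts of the libraries touch the results. Dyrk1a, the targeted kinase, was at 4248, 3938 and 5877 scaled fragments in the 189N3 libraries (replicates 0, 1 and 2) and at 2448, 2977 and 2126 in their wild types, a log2 fold change of 0.89 ± 0.24 (SE, adjusted p = 1.00 in limma, and an unadjusted p under 0.05 in the main fit and all 15 alternatives). Dp(16)1Yey/+ libraries 0, 1, 2 and 3 had Dyrk1a at 4781, 2124, 3600 and 3044, against 2488, 2397, 3171 and 3175 in the wild types, and the library labelled Dp(16)1Yey/+ replicate 1 lay below all of them. Of the Dp(16)1Yey wild types, replicates 0 and 1 differed by 1.65 times counting noise (squared difference of the median gene), and replicates 2 and 3 by 2.03 times, whereas the other pairs of libraries within a group differed by 9.37 to 118 times. Markers of blood, skin and connective tissue differed between 189N3 and their wild types: the summed level of the 5 named erythroid genes of 6 listed was 13859 to 22137 in 189N3 and 33790 to 54237 in their wild types, and 6139 to 48387 in Dp(16)1Yey/+ against 4559 to 17127. Of the erythroid genes 5 of 5 tested were lower in 189N3 with an unadjusted p under 0.05, of the skin genes 4 of 4 (sums 180 to 256 against 262 to 1948) and of the connective tissue genes 3 of 5 (1161 to 2090 against 1953 to 5590). In the other line skin sums were 184 to 413 in Dp(16)1Yey/+ against 155 to 230 in the wild types, and connective tissue sums 457 to 2908 against 460 to 1138. Neuronal markers (8 of 8 named, summed 102689 to 206704) and embryonic hippocampus markers (5 of 5, summed 3791 to 11924) were present in every library, as were progenitor and cell cycle markers (12 of 12, summed 28882 to 73742). The markers of skin, connective tissue, striatum (461 to 1852), microglia (514 to 986), endothelium (1046 to 2903) and choroid plexus (185 to 14327) were lower in sum than the neuronal ones in every library, and their part in the SR results was not tested. In bulk tissue, fewer cells of a type and less RNA per cell cannot be told apart.

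The first comparison asks whether an extra copy of Dyrk1a alone goes with a different amount of SR gene RNA. It was not detectable at this spread: 0 of the 10 SR genes had an unadjusted p under 0.05 in 189N3 mice in limma, where 1.87% of all loci tested did. Of the 10, 7 were higher than in the wild types and 3 lower, with a median log2 fold change of 0.03, beside -0.04 for all loci tested. Of the 3 lower genes, Srsf3 and Srsf7 turned to slightly higher with median-ratio size factors, and Srsf3, Srsf6 and Srsf7 did in DESeq2. The single values ran from -0.06 (Srsf6) to 0.19 (Srsf9), and the 95% intervals of the 10 genes together reached from a fold of 0.676 to a fold of 1.74. These bounds pool the intervals of the 10 genes and are not a limit of detection for any single gene. With the Benjamini-Hochberg adjustment 0% of the loci passed in this model in limma, and on the recovered fragments edgeR called 0 loci and DESeq2 15. The 189N3 and wild-type libraries overlapped for every SR gene (0 of 10 apart), where 4.98% of all loci were apart.

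The second comparison asks the same of the whole duplicated segment. None of the 10 genes lies in it, since none is on chromosome 16 between Lipi and Zbtb21. Of the SR genes, 0 of 10 had in Dp(16)1Yey/+ mice an unadjusted p under 0.05 (background 3.53% of loci, and 0% after adjustment in limma, with 0 loci in edgeR and 8 in DESeq2). Again 7 were higher and 3 lower, with a median log2 fold change of 0.12 beside 0.03 for all loci, and Srsf6 turned to slightly lower with median-ratio size factors, in edgeR and in DESeq2. Values ran from -0.18 (Srsf4) to 0.22 (Srsf5), and the intervals reached from a fold of 0.694 to a fold of 1.52. These intervals take the wild types as separate samples. As 2 pairs of them differed by only 1.65 and 2.03 times counting noise, the intervals may be too narrow. An interaction term over the 14 libraries compared the 2 effects: 0 of 10 genes had p under 0.05 (background 2.66%, and 0% after adjustment), and the smallest adjusted p of the 10 was 0.922 in limma.

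**Figure D1:**
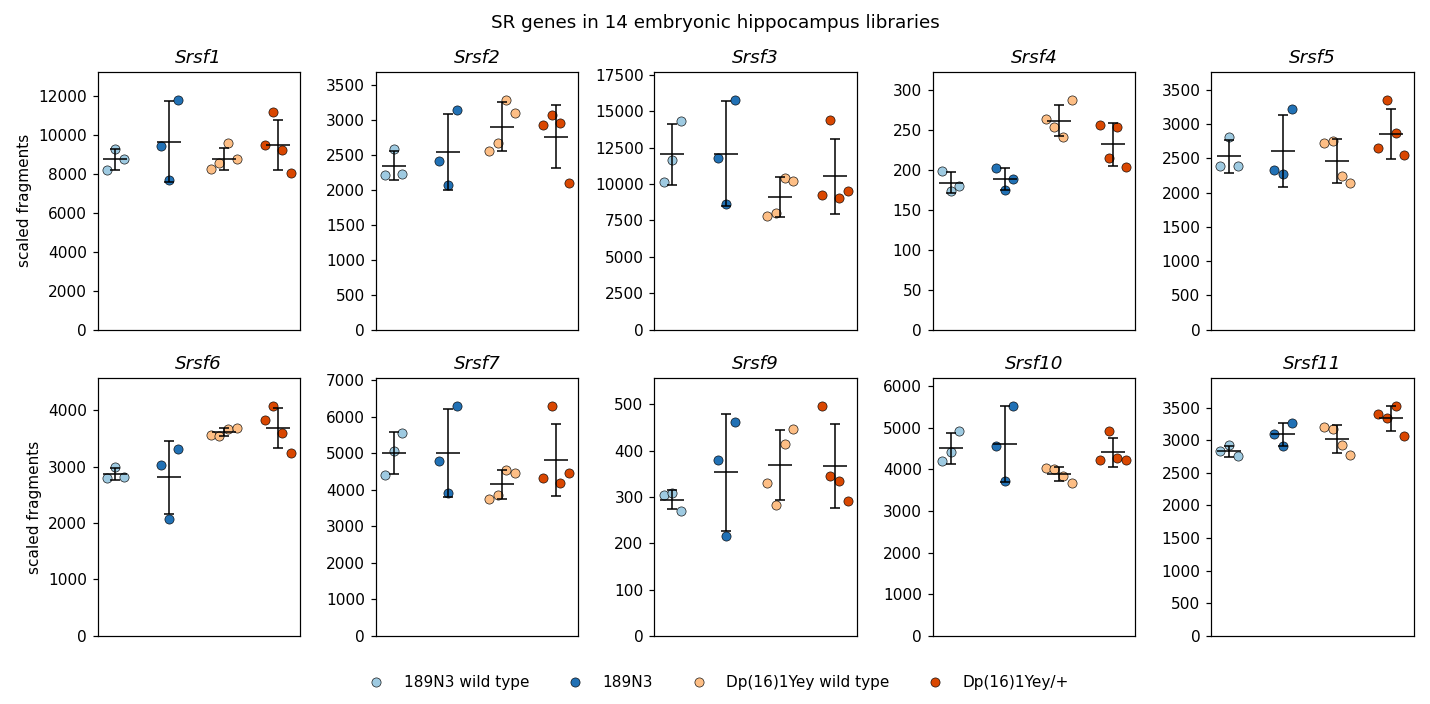
Scaled fragments of the 10 SR genes (vertical axes, each from 0) in the 14 libraries, by group; dots are libraries, horizontal bars the group mean and error bars ± 1 SD. The 189N3 dots spread more widely than those of their wild types, except for Srsf4, where the spreads are nearly the same. Srsf4 is the gene whose 8 Dp(16)1Yey line libraries all lie above the 6 of the 189N3 line.

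**Figure D2:**
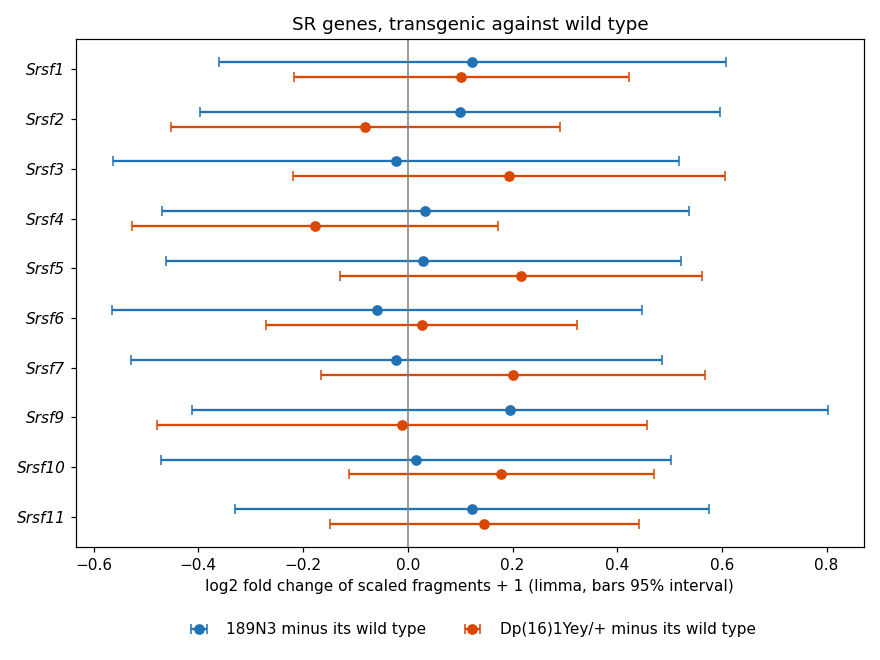
Log2 fold change of each SR gene against the wild types of its line (horizontal axis), with 95% intervals from limma, for 189N3 (blue) and Dp(16)1Yey/+ (orange). All 20 intervals include 0, and the widest reaches 0.80 for Srsf9 in 189N3. Those of Dp(16)1Yey/+ take nearly alike wild types as separate samples.

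Of the classical SR proteins, Srsf2, Srsf3 and Srsf7 have 1 RNA recognition motif. Srsf3 (chr17:29032628-29043373), which also takes part in mRNA export and 3′ end formation, was at 11803, 8657 and 15800 scaled fragments in 189N3 and at 10169, 11623 and 14314 in the wild types. Srsf3 in the Dp(16)1Yey/+ libraries was at 9216, 14393, 9033 and 9518, and in their wild types at 7832, 7993, 10400 and 10242. The groups overlapped in both models, and replicate 1 of Dp(16)1Yey/+ stood far above the other 3. The log2 fold changes were -0.02 ± 0.25 in 189N3 (SE, adjusted p = 1.00 in limma) and 0.19 ± 0.19 in Dp(16)1Yey/+ (adjusted p = 0.909).

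Srsf7 (chr17:80200080-80207307), which carries a zinc knuckle beside its RNA recognition motif, followed the same libraries. It was at 4794, 3920 and 6308 in 189N3, at 4401, 5069 and 5560 in the wild types, at 4331, 6286, 4198 and 4461 in Dp(16)1Yey/+ and at 3743, 3866, 4537 and 4457 in their wild types. Over the 14 libraries the log2 values of Srsf3 and Srsf7 had Pearson's r = 0.979, the highest of the 45 pairs of SR genes (a description, since libraries share group and scaling). Both genes are on chromosome 17. The log2 fold changes of Srsf7 were -0.02 ± 0.24 in 189N3 and 0.20 ± 0.17 in Dp(16)1Yey/+ (SE).

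Srsf2 (chr11:116849901-116853094), known as SC35 and used as a marker of nuclear speckles, was at 2413, 2075 and 3140 in 189N3 and at 2218, 2585 and 2229 in the wild types. Its Dp(16)1Yey/+ values were 2928, 3075, 2955 and 2093, against 2558, 2670, 3292 and 3102. Replicate 3 was the low library of the transgenic group. The fold changes were 0.10 ± 0.23 and -0.08 ± 0.17 on the log2 scale (SE).

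Those with a pair of RNA recognition motifs are Srsf1, Srsf4, Srsf5, Srsf6 and Srsf9. Srsf1 (chr11:88047373-88053755), also known as ASF/SF2 and a known DYRK1A substrate, was at 9453, 7706 and 11826 in 189N3 and at 8200, 9270 and 8769 in the wild types. The Dp(16)1Yey/+ libraries were at 9491, 11180, 9230 and 8042 and their wild types at 8238, 8572, 9573 and 8771. The transgenic groups were spread more widely than the wild types, with a coefficient of variation of 21.4% and 13.6% against 6.12% and 6.46%. The log2 fold changes were 0.12 ± 0.23 and 0.10 ± 0.15 (SE, adjusted p = 1.00 and adjusted p = 0.914 in limma).

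Srsf6 (chr2:162931528-162937121), also a known DYRK1A substrate, acts on the splicing of tau, the microtubule protein whose isoform balance DYRK1A has been tied to. It was at 3034, 2075 and 3318 in 189N3 against 2799, 2997 and 2816, and at 3827, 4080, 3593 and 3246 in Dp(16)1Yey/+ against 3557, 3534, 3660 and 3676. The wild-type libraries were close to each other in both lines, and the transgenic ones lay on both sides of them. The fold changes were -0.06 ± 0.24 and 0.03 ± 0.14 on the log2 scale (SE).

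Srsf5 (chr12:80945504-80950507) was at 2334, 2271 and 3214 in 189N3 against 2395, 2808 and 2382. Its level in Dp(16)1Yey/+ was 2656, 3357, 2872 and 2542 against 2718, 2755, 2238 and 2135, which gave the highest fold change of the 10 in this model, 0.22 ± 0.16 on the log2 scale (SE, adjusted p = 0.909 in limma). Its groups overlapped.

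Srsf4 and Srsf9 were the low members. Srsf4 (chr4:131873617-131901706), the member with the most arginine-serine pairs, was at 202, 175 and 189 in 189N3 against 199, 173 and 180, and at 256, 215, 254 and 203 in Dp(16)1Yey/+ against 264, 253, 242 and 288. Srsf9 (chr5:115327177-115333080), the one with the fewest pairs, was at 380, 216 and 463 in 189N3 against 304, 308 and 271, and at 497, 344, 335 and 292 against 330, 283, 414 and 447. Within 189N3 the coefficient of variation was 7.32% for Srsf4 and 35.6% for Srsf9, the widest of the 10, with replicate 1 low and replicate 2 high. The Srsf9 fold change of 0.19 ± 0.28 in 189N3 (SE on the log2 scale) had the widest interval, from a fold of 0.751 to 1.74.

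Srsf10 and Srsf11 are SR-like proteins, which also have 1 RNA recognition motif. Srsf10 (chr4:135855747-135869908), which turns into a splicing repressor when it loses its phosphates, was at 4575, 3722 and 5535 in 189N3 against 4194, 4417 and 4921. In Dp(16)1Yey/+ it was at 4217, 4934, 4269 and 4231, all above the wild types at 4029, 4020, 3842 and 3679. It was the 1 SR gene of 10 whose groups did not overlap in this model, where 2.45% of all loci did not. The wild types form 2 nearly alike pairs, so they may count for fewer than 4 separate samples. In limma the log2 fold change was 0.18 ± 0.13 (SE) with adjusted p = 0.909. Over the alternatives the log2 fold change ran from 0.12 to 0.20, and the unadjusted p (from limma, edgeR or DESeq2) stayed over 0.05 in all of them.

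Srsf11 (chr3:158010473-158036639) was at 3094, 2911 and 3262 in 189N3 against 2831, 2921 and 2753, with replicate 1 inside the wild-type range. The Dp(16)1Yey/+ libraries were at 3402, 3346, 3531 and 3071 against 3206, 3174, 2921 and 2770. The log2 fold changes, 0.12 ± 0.21 and 0.15 ± 0.13 (SE), were nearly alike in the 2 models, with an interaction of 0.02 and an interval from -0.38 to 0.43. The interval of this difference was the narrowest of the 10.

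In some transgenic libraries the SR genes deviated together from their group means. Every wild-type library had SR genes on both sides of its group mean, with median log2 deviations between -0.08 and 0.07. In 189N3 mice, replicate 1 was the lowest library for 10 of 10 SR genes and replicate 2 the highest for 9 of 10, with median log2 deviations from the group mean of -0.30 and 0.32. Over the 36045 loci with a mean of at least 10, replicate 1 was the lowest for 33.8% and replicate 2 the highest for 40.8%, and the median deviations of all loci were 0.06 and -0.05. Summed over the 10 genes, the 189N3 libraries held 42082, 33727 and 53054 scaled fragments (0.171%, 0.145% and 0.193% of all fragments), and their wild types 37710 to 44194. The same replicate 2 also had the highest summed neuronal (206704), microglia (986) and endothelium (2903) markers of the 14 libraries. Replicate 1 had 140913, 789 and 2176. Within 189N3, replicate 2 was also highest for progenitor and cell cycle, erythroid, skin and striatum markers. Replicate 1 was highest for embryonic hippocampus, connective tissue and choroid plexus markers. The part of these markers in the spread of the SR genes was not tested.

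The direction in 189N3 depended on these 2 libraries. Without 189N3 replicate 1, all 10 SR genes were higher than in the wild types (median log2 fold change 0.16), and without 189N3 replicate 2, 2 were higher and 8 lower (median -0.09). In neither case did a member have p under 0.05 in limma.

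Among Dp(16)1Yey/+ mice, replicate 1 was the highest library for 7 of 10 SR genes and replicate 3 the lowest for 7 of 10, where 24.8% and 21.8% of all loci were so placed. Replicate 1 is the library whose Dyrk1a lay below the wild types of its line. It also had the highest sums of its group for markers of blood (48387), progenitors and cell cycle (73742), skin (413), connective tissue (2908) and choroid plexus (2580). Its sum of embryonic hippocampus markers (3791) was the lowest of the 14 libraries. Without it the SR genes were still 7 higher and 3 lower, with a median log2 fold change of 0.03 in place of 0.12, beside a summed level of 51211 scaled fragments in this library and 37700 to 40821 in the other 3. The part of these cells in its SR level was not tested.

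**Figure D3:**
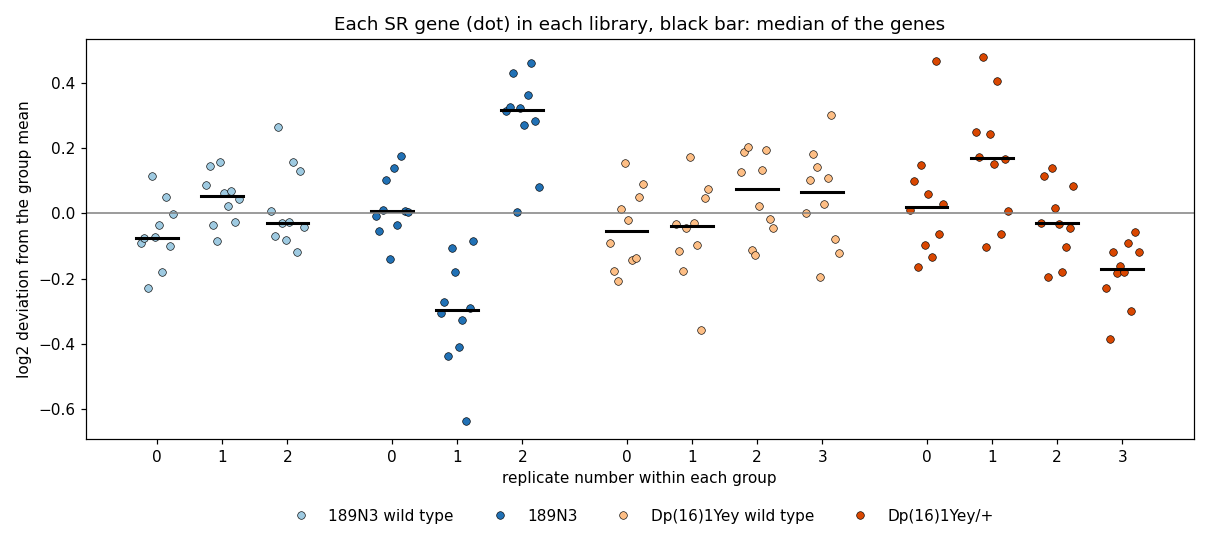
Log2 deviation of each SR gene from its group mean (vertical axis; dots are the 10 genes, black bars their median) in each library (horizontal axis: replicate number by group). The bars of 189N3 replicates 1 and 2 stand at -0.30 and 0.32, and those of the wild-type libraries lie between -0.08 and 0.07.

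Deviations from the group means were positively correlated for 40 of 45 pairs of SR genes (median r = 0.52), and over the 14 libraries the median r was 0.41, both given as a description. The share over pairs of other genes was not counted, so these values do not set the SR genes apart. The lowest r over the 14 libraries was -0.51, between Srsf3 and Srsf4. Of 11236 named loci with a mean of at least 100, those whose log2 values were most like the mean of the 10 SR genes over the 14 libraries were Fam53b (r = 0.979), Rab8a (0.959), Rad21 (0.942), 5430417L22Rik (0.933) and Usp39 (0.933). Rab8a is a small GTPase of vesicle transport, Rad21 a subunit of cohesin and Usp39 a protein of the spliceosome.

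Some SR genes stood apart between the lines, a comparison given without a test. Srsf4 was 1.42 times as high in the wild types of the Dp(16)1Yey line (mean 262) as in those of the 189N3 line (184), and all 8 libraries of the former line lay above all 6 of the latter. Srsf6 was 1.26 times as high in the Dp(16)1Yey wild types, and Srsf10 was 0.863 times as high, again with wild types that did not overlap. These 3 of 10 genes stand beside 25.5% of all loci whose wild types did not overlap between the lines. Line, litter, age within the embryonic window and preparation cannot be told apart here.

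The isoform rows split the fragments of each locus by estimation. Srsf1 had a single row, Srsf2 had 2 with 96.7% in the main one, and Srsf3 had 2 with 87.0% in uc008bsd.2. Srsf7 had 9 rows, the most of the 10 genes, with 40.1% in the largest, uc008dqq.2. Of the 43 rows, 40 had a mean of at least 10 in the libraries compared. Among them 2 had p under 0.05 in 189N3 (background 2.56% of isoforms) and 1 in Dp(16)1Yey/+ (3.48%). After adjustment 0 of the 40 passed in either model, where 0.0366% and 0.0214% of all isoforms did. Tested against the other isoforms of the same gene, 2 of 39 had p under 0.05 in 189N3 (background 3.95%) and 1 of 39 in Dp(16)1Yey/+ (3.75%), again with 0 after adjustment, where 0% and 0.0486% of all isoforms passed. Of these ratios, that of Srsf5 in 189N3 had p over 0.05 under 6 of 11 alternative settings and that of Srsf11 in Dp(16)1Yey/+ under 6 of 13.

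The isoform with the lowest adjusted p was Srsf7 uc012axq.1. It took 0.00277%, 0.241% and 0.00149% of the Srsf7 fragments in the 189N3 libraries and 6.90%, 3.60% and 6.70% in the wild types. All 3 transgenic libraries were thus near 0, and limma gave an isoform log2 fold change of -6.87 ± 0.94 (SE, adjusted p = 0.204). The share was also near 0 in Dp(16)1Yey/+ replicate 2 (0.00723%) and in Dp(16)1Yey wild-type replicate 2 (0.0734%), and between 4.55% and 9.87% in the other 6 libraries of that line. Wild-type replicates 2 and 3 of that line, which differed by 2.03 times counting noise, thus lay far apart in this share. The estimated share was therefore unstable even between nearly alike libraries. Another Srsf7 row, an assembled transcript that shares a junction with uc008dqr.2 (TCONS_00042937), was at 12.7%, 11.7% and 12.9% in 189N3 and at 0.000400%, 6.20% and 2.38% in the wild types, the opposite order, and had no p under 0.05.

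Srsf5 had 1 row with p under 0.05, an assembled transcript that shares a junction with uc007obq.1 (TCONS_00020052). It took 3.16%, 1.96% and 2.76% of Srsf5 in 189N3 and 14.3%, 3.67% and 11.5% in the wild types, with an isoform log2 fold change of -1.67 ± 0.52 (SE, adjusted p = 1.00 in limma). The groups did not overlap (the share of all isoforms that did not was not counted), but wild-type replicate 1 lay close to the transgenic libraries. The shares of the Srsf10 rows TCONS_00065157 and TCONS_00065158 also did not overlap in 189N3, and these rows had no p under 0.05. Its p was over 0.05 without 189N3 replicate 1 (log2 fold change -1.39), without wild-type replicate 0 (-1.33) and without wild-type replicate 2 (-1.49). In the Dp(16)1Yey line, 6 of the 8 libraries lay at 2.12% to 3.07%, and 1 of each genotype lay at 8.79% and 10.5%. The 10.5% was that of wild-type replicate 3, although its nearly alike partner, replicate 2, was among the 6.

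The row with p under 0.05 in Dp(16)1Yey/+ was an assembled transcript of Srsf11 that shares a junction with uc008rvo.1 (TCONS_00062708). It took 6.20%, 3.66%, 7.45% and 7.18% of Srsf11 in the transgenic libraries and 10.4%, 11.3%, 11.3% and 8.72% in the wild types. These groups did not overlap (the share of all isoforms that did not was not counted). Another Srsf11 row, TCONS_00062712, also had shares that did not overlap in this model, without a p under 0.05. The isoform log2 fold change was -0.67 ± 0.26 (SE, adjusted p = 0.945 in limma), and against the other isoforms -0.88 ± 0.35. Without Dp(16)1Yey/+ replicate 1, the library whose Dyrk1a lay below its wild types, the isoform log2 fold change was -0.44, and p was then over 0.05. It was also over 0.05 without Dp(16)1Yey wild-type replicate 0 (-0.63), 1 (-0.60) or 2 (-0.64). In the 189N3 line this row held 9.02% to 10.3% in the transgenic libraries and 6.22% to 10.5% in the wild types.

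Srsf3, whose poison exon is shown above, had shares that overlapped between genotypes in both lines. Its second row, uc008bse.2, held 10.8%, 13.3% and 8.93% of Srsf3 in 189N3 against 12%, 11.9% and 9.73%. In the Dp(16)1Yey line it held 12.5%, 11.3%, 16.0% and 17.3% in the transgenic libraries and 18.0%, 17.5%, 11.1% and 11.1% in the wild types, so the wild types split into the 2 nearly alike pairs. The ratio to the other isoform had a log2 fold change of -0.04 in 189N3 and had no p under 0.05 in either model. Shares of Srsf4, Srsf6, Srsf9 and Srsf11 moved by up to 45.4, 34.1, 26.9 and 20.8 percentage points within a single group.

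**Figure D4:**
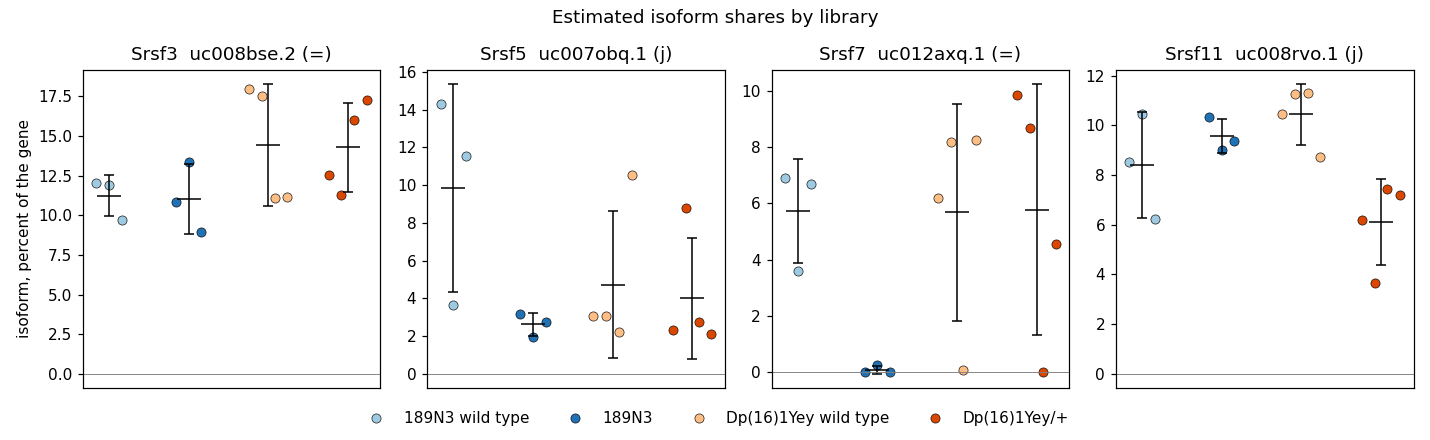
Share of the gene's fragments (vertical axes, percent, each from 0) given to 1 isoform row of Srsf3, Srsf5, Srsf7 and Srsf11 in each library; dots are libraries, bars the group mean and error bars ± 1 SD, with the assembly's code (= for the same structure as the UCSC transcript, j for a shared junction). The Srsf7 row lies at or under 0.241% in all 3 189N3 libraries and in 1 library of each genotype of the other line.

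Other splicing genes were read from 5 lists, whose counts stand beside 1.87% of all loci with p under 0.05 in 189N3 and 3.53% in Dp(16)1Yey/+. Kinases and import factors of the SR tail had 1 of 10 tested genes with p under 0.05 in 189N3, Dyrk1a itself, and 0 of 10 in Dp(16)1Yey/+, with list medians of 0.06 and 0.13 (log2). Clk4, a kinase of the SR tail that is regulated by splicing, had the smallest p of the lower genes in 189N3 (-0.14), and Top1 had the smallest of the higher genes in Dp(16)1Yey/+ (0.20). Clk2 was the lower gene with the smallest p there, at -0.11. The values in parentheses for this and the following lists are log2 fold changes from limma, and every adjusted p of these genes was 0.909 or higher.

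SR-related splicing proteins had 0 of 15 tested genes with p under 0.05 in 189N3 (median 0.10) and 2 of 15 in Dp(16)1Yey/+ (median 0.06, beside 3.53% of all loci), Son and Scaf4. Son, a large SR-like scaffold protein of nuclear speckles encoded at chr16:91647506-91679221 inside the duplicated segment, was at 23112, 15647, 26625 and 23683 scaled fragments in Dp(16)1Yey/+ and at 16940, 17166, 12698 and 12461 in the wild types. Replicate 1, again the library whose Dyrk1a lay below its wild types, lay inside the wild-type range. The log2 fold change of Son was 0.58 ± 0.20 (SE, adjusted p = 0.909), against -0.01 in 189N3, where it turned to slightly higher with median-ratio size factors and in DESeq2. The interaction was 0.59 (unadjusted p under 0.05, adjusted p = 0.922), and the p of Son in Dp(16)1Yey/+ was over 0.05 with nearly alike libraries averaged. Scaf4, which binds RNA polymerase II and is encoded at chr16:90225680-90284503, also in the segment, was at 0.42 in Dp(16)1Yey/+, and its p was over 0.05 under 11 of 18 alternative settings. Srrm2, the other scaffold of the speckle, was at 0.23 in 189N3 and -0.33 in Dp(16)1Yey/+, with an interaction of -0.56 (unadjusted p under 0.05, adjusted p = 0.922). In 189N3 the smallest p of the 12 higher genes was that of Snrnp70 (0.24), and of the 3 lower genes that of Tra2b (-0.05).

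The hnRNP and PTB repressors, which often oppose SR proteins, had 0 of 23 genes with p under 0.05 in either model. Their medians were 0.10 in 189N3 and 0.16 in Dp(16)1Yey/+, with 17 higher and 6 lower in both. Among the higher genes the smallest p was that of Hnrnpa2b1 in 189N3 (0.21) and of Hnrnpa1 in Dp(16)1Yey/+ (0.31), and among the lower genes that of Pcbp2 (-0.15) and of Pcbp1 (-0.24). Genes of nonsense-mediated decay and the exon junction complex, through which poison exons act, had 0 of 15 with p under 0.05 in both models, with medians of 0.05 and -0.12. Among the higher genes of this list the smallest p was that of Casc3 in 189N3 (0.34) and of Upf3b in Dp(16)1Yey/+ (0.35), and among the lower genes that of Magoh (-0.10) and of Upf1 (-0.45).

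Neuronal splicing regulators had 0 of 18 with p under 0.05 in 189N3, where the smallest p of the 15 higher genes was that of Rbfox1 (0.58) and of the 3 lower genes that of Mbnl2 (-0.20). The 2 of 18 with p under 0.05 in Dp(16)1Yey/+ (beside 3.53% of all loci) were Khdrbs2 (0.43), which encodes SLM1, and Nova1 (-0.63), a regulator of neuronal exons. The list medians were 0.17 and -0.05. The p of Khdrbs2 was over 0.05 under 5 of 18 alternative settings and that of Nova1 under 7 of 18. Nova1 was at 834, 678, 714 and 725 scaled fragments in Dp(16)1Yey/+ and at 787, 839, 1546 and 1658 in the wild types. Its difference thus rested on wild-type replicates 2 and 3, which are nearly alike, and replicates 0 and 1 lay close to the transgenic libraries. The lists were small, and 0 of their genes passed after adjustment.

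**Figure D5:**
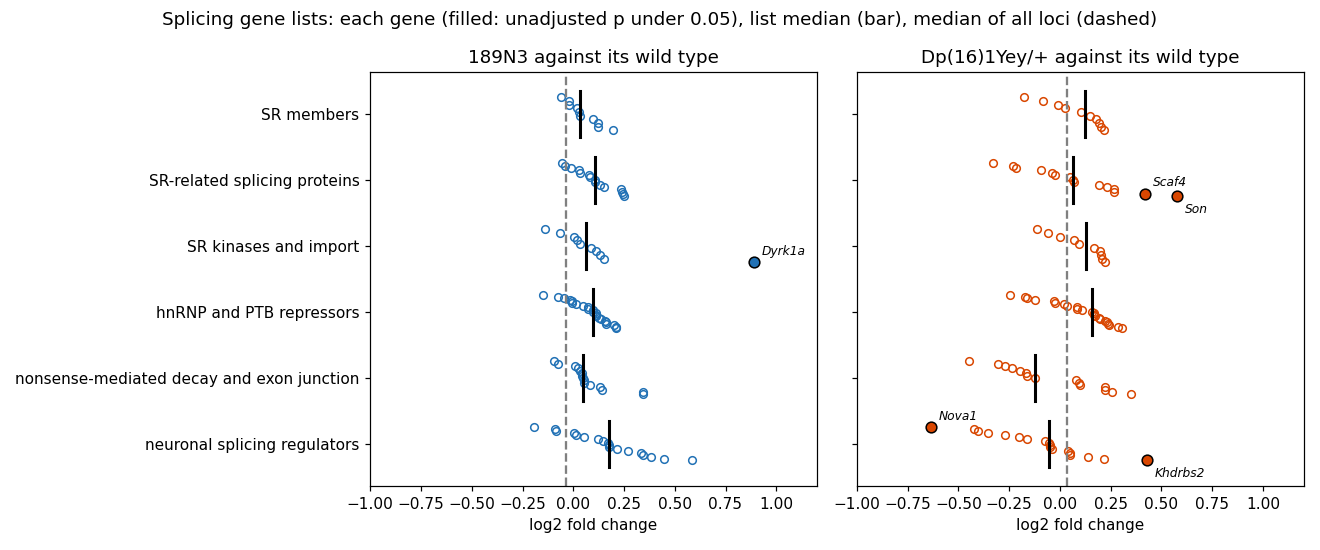
Log2 fold changes (horizontal axes) of the SR genes and 5 lists of other splicing genes in 189N3 (left) and Dp(16)1Yey/+ (right); dots are genes, filled and named where the unadjusted p is under 0.05, black bars list medians and dashed lines the median of all loci. Dyrk1a at 0.89 on the left and Son at 0.58 on the right lie furthest to the right.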

How the data were processed

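RNA from 14 hippocampal libraries, prepared with a stranded total RNA kit, was sequenced in paired ends of 100 bases. The authors aligned reads to mm10 with Bowtie and TopHat and assembled and quantified loci with Cufflinks over all samples, with correction for fragment bias and multi-mapped reads; versions are not given in the sources used here. The deposited signal values are fragments per locus or isoform divided by 1 size factor per library. Of the lower values per gene, the only ones checked, 100% were whole multiples of 1 step (within 0.1 of a fragment). Larger values were rounded to the nearest multiple of the step. This gave back 20809135 to 29098454 fragments per library. Isoform values are estimated shares of the same fragments. Within groups, libraries differed by 9.37 to 118 times counting noise, except 2 pairs of Dp(16)1Yey wild types (1.65 and 2.03 times).

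Locus names came from the deposited map between loci and UCSC transcripts: 49063 of 49110 loci with a mean of at least 1 were matched by isoforms that sum to the locus value. The test was limma 3.58.1 (R 4.3.3, empirical Bayes with trend) on log2(value + 1), for features with a mean of at least 10, each model against its own wild types, with Benjamini-Hochberg adjustment over all features. Fold changes are on this log2(value + 1) scale. The interaction used all 14 libraries. An exact two-sided permutation test of single genes cannot go below 0.10 for 3 against 3 libraries and 0.0286 for 4 against 4, a value that groups without overlap always give, so its p is not reported. Alternatives were other pseudocounts, filters and size factors, 1 fit of the 4 groups, a replicate block, nearly alike libraries averaged, each library left out, and, run on the fragments given back, edgeR 4.0.16 and then DESeq2 1.42.0. The fits were also run on simulated counts, drawn independently for each library with the same dispersion for every locus. Those counts held no nearly alike libraries, so they do not test how the fits handle them.

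The SR genes and the other lists were chosen with earlier results of these data known. Named were all 10 SR genes, their isoform rows, of each other splicing list the gene with the smallest p in each direction, and the 5 genes most like the SR mean. Scaf4 was named beyond that rule, after its values were seen.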

Additional observations from a re-analysis of the deposited data

Results flagged for a closer look

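Within groups of 4 libraries, 98 sets of values of SR genes and isoform shares were screened for 1 library far from the other 3 by Dixon's ratio, which chance alone passes in about 1 in 20 groups. At the gene level the libraries that stood apart were all Dp(16)1Yey/+: replicate 3 for Srsf2 (2093 scaled fragments), and replicate 1 for Srsf3 (14393), Srsf7 (6286) and Srsf10 (4934). Replicate 1 is also the library with Dyrk1a at 2124, and no part of that in these values was tested.

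Among isoform shares in Dp(16)1Yey/+, replicate 1 stood apart for the Srsf5 row TCONS_00020052 (8.79% of the gene) and the Srsf11 row TCONS_00062707 (5.90%), and replicate 2 for the Srsf10 row TCONS_00065163 (6.02%). In the Dp(16)1Yey wild types, replicate 3 stood apart for the Srsf5 row TCONS_00020052 (10.5%), the Srsf7 row TCONS_00042934 (0.765%) and the Srsf9 row TCONS_00071373 (0.229%). Replicate 1 did so for the Srsf7 row TCONS_00042936 (17.0%), the Srsf10 row TCONS_00065161 (8.38%) and the Srsf11 row TCONS_00062709 (2.83%), and replicate 2 for the Srsf7 row TCONS_00042937 (10.98%).

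Loci on the opposite strand of 7 SR genes, which the comparisons did not use, held signal in all 14 libraries. Their means were 427 scaled fragments at Srsf2, 1159 at Srsf3, 1074 at Srsf5, 411 at Srsf6, 505 at Srsf7, 1493 at Srsf10 and 437 at Srsf11. The libraries were made with a stranded total RNA kit. Whether reads of the sense gene were counted there was not tested, since the use of strand in counting is not given in the sources used here.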

How the results depend on the processing

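Of 330 alternative values for the 10 SR genes, 300 kept their direction, 30 changed sign and 0 had p under 0.05. With median-ratio size factors the 189N3 log2 fold changes of Srsf3, Srsf7 and Son were 0.003923, 0.004668 and 0.0142, and in DESeq2 those of Srsf3, Srsf6, Srsf7 and Son were 0.04594, 0.002402, 0.0363 and 0.02069. For Srsf6 in Dp(16)1Yey/+ they were -0.007063 with median-ratio size factors, -0.006658 in edgeR and -0.001218 in DESeq2. With each library left out, 189N3 values ran from -0.03354 to 0.2754 for Srsf1, -0.06348 to 0.2355 for Srsf2, -0.2373 to 0.1966 for Srsf3, -0.01791 to 0.09115 for Srsf4, -0.1305 to 0.1199 for Srsf5, -0.1936 to 0.145 for Srsf6, -0.2021 to 0.141 for Srsf7, -0.03508 to 0.5123 for Srsf9, -0.1251 to 0.1611 for Srsf10, -0.0745 to 0.08397 for Son and -0.4612 to 0.2698 for Nova1. Those in Dp(16)1Yey/+ ran from -0.1398 to 0.04681 for Srsf2, -0.02389 to 0.08608 for Srsf6 and -0.1672 to 0.08864 for Srsf9.

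Counts of loci with p under 0.05 in 189N3 were 672, and 1395 with no filter, 178 with a mean of at least 100 and 323 (without wild-type replicate 0) to 2423 (without 189N3 replicate 1) with a library left out. For isoforms they were 1537, 2653, 497 and 1398 to 2655, and for isoform ratios 1366, 2074 and 560. The Dp(16)1Yey/+ counts were 1273, with 2031 under no filter, 490 with a mean of at least 100, 271 with nearly alike libraries averaged and 721 (without Dp(16)1Yey/+ replicate 1) to 4567 (without Dp(16)1Yey/+ replicate 0) with a library left out. For isoforms they were 2110, 3701, 806 and 1672 to 4944, and for ratios 1312, 2101 and 504. The interaction gave 957, and 480 to 3450 with a library left out. The causes of these shifts were not tested.

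Replicate numbers did not pair the libraries (correlation of deviations -0.03, -0.32 and -0.15 in 189N3 and -0.41, -0.07, -0.45 and -0.16 in Dp(16)1Yey/+). With a replicate block the counts were 754 loci in 189N3, of which 72 passed after adjustment, 863 in Dp(16)1Yey/+ and 697 for the interaction, 1452 and 1538 isoforms, and 1257 and 1214 ratios. Under the block the Srsf5 ratio, the Srsf11 isoform and ratio, Scaf4 and Khdrbs2 no longer had p under 0.05.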
